A study of Mus musculus with 2 samples.

Results

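Aminoacyl-tRNA synthetases are the enzymes that join each amino acid to its transfer RNA. Their genes were taken as the protein-coding genes whose whole symbol is 1 capital letter followed by "ars" and at most 1 of the endings 1, 2, a and b, together with Eprs. The rule found 37 genes among the 43346 Ensembl genes of the deposited gene tables, or among 21461 protein-coding genes of the nuclear chromosomes. Of these, 20 encode enzymes of the cytoplasm and 17 encode enzymes of the mitochondrion. The naming rule uses no measured value, although the set was proposed with earlier results of these data known.

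A synthetase selects its amino acid, activates it with ATP and passes it to the end of the matching tRNA, which an elongation factor then carries to the ribosome. Cells translate at separate sites, and the enzymes for mitochondrial translation are mostly encoded by nuclear genes of their own, marked by the ending 2. Gars and Kars each supply glycyl- and lysyl-tRNA at both sites from one gene. The cytoplasmic enzymes for glutamate and proline are fused in the single protein of Eprs, and the cytoplasmic phenylalanine enzyme is built from the subunits of Farsa and Farsb. Mitochondria have no glutaminyl-tRNA synthetase, because Ears2 loads glutamate onto the glutamine tRNA and an amidotransferase converts it. In animal cells a set of the cytoplasmic enzymes is held together in the multisynthetase complex on the scaffold proteins Aimp1, Aimp2 and Eef1e1.

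Total RNA had been sequenced from common myeloid progenitors, bone marrow cells from which the granulocyte-macrophage and the megakaryocyte-erythroid lineages descend. Both libraries came from male C57BL/6J mice of 5 to 6 weeks with no treatment or engineered allele named in the labels. They form a single group of 2 biological replicates, so no contrast between conditions could be made and no p-value is given. The labels of both name one donor, and the spread between them may therefore be partly technical. Each library started from 100 ng of RNA, from which ribosomal RNA had been removed before the ScriptSeq preparation, with stated size ranges of 200 to 1000 in replicate 1 and 187 to 1606 in replicate 2, given without a unit.

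Estimated counts over Ensembl genes totalled 28158803 in replicate 1 and 84041054 in replicate 2, which is 2.98 times as deep. All 6 progenitor markers (Cd34, Kit, Myb, Cd48, Gata2, Mpo) had at least 1 TPM (estimated reads corrected for transcript length and scaled to the same sum over all entries of each table) in both libraries, with a median of 65.8 ± 9.99 TPM (SD, n = 2). None of 5 B cell markers and none of 5 T cell markers reached 1 TPM, and their summed levels were at most 0.07 and 0.48 TPM. Pecam1 was the 1 of 5 stromal and endothelial markers that did, while Cdh5 and Col1a1 had 0 counts in both libraries. Among erythroblast markers 3 of 5 reached 1 TPM, and their sum was 17.7 and 15.6 TPM. The part that cells of other types play in the values below was not tested, and in a bulk sample fewer cells of a type and less RNA per cell cannot be told apart.

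In these progenitors 36 of the 37 synthetase genes had at least 1 TPM in both libraries, where 42.5% of nuclear protein-coding genes did. The exception was Wars2, the mitochondrial tryptophan enzyme, with 0.77 TPM in replicate 1 and 1.47 in replicate 2. At a threshold of 5 TPM the count was 28 of 37, beside 24.7% of protein-coding genes. No synthetase gene was near the limit of detection, since the lowest level was 8.03 CPM (counts scaled to the library total, not corrected for length) and a count of 0 allows up to 0.107 CPM in replicate 1 and 0.0357 in replicate 2. These limits cover counting error only.

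Cytoplasmic enzymes stood above mitochondrial ones as a group. Their median was 25.9 TPM in replicate 1 and 26.4 in replicate 2, or 26.1 ± 0.382 TPM (SD, n = 2). Mitochondrial enzymes had medians of 5.67 and 4.12 TPM, or 4.90 ± 1.10. The median over all nuclear protein-coding genes was 0.29 and 0.35 TPM, and over the 9116 of them with at least 1 TPM in both libraries it was 6.71 and 7.77 TPM. The mitochondrial median therefore lay below that of detected genes in both libraries, and the cytoplasmic median lay above it. On the log2(TPM + 1) scale the medians differed by 2.01 in replicate 1 and 2.42 in replicate 2, or 2.21 ± 0.29. In both libraries every one of the 20 cytoplasmic genes exceeded the mitochondrial median. Only 1 of the 17 mitochondrial genes, Lars2, exceeded the cytoplasmic median. Summed over genes, cytoplasmic enzymes reached 558 and 614 TPM against 113 and 113 TPM for mitochondrial enzymes, ratios of 4.95 and 5.44. Without correction for length the medians were 133 and 131 CPM for cytoplasmic and 23.3 and 24.2 CPM for mitochondrial enzymes.

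**Figure D1:**
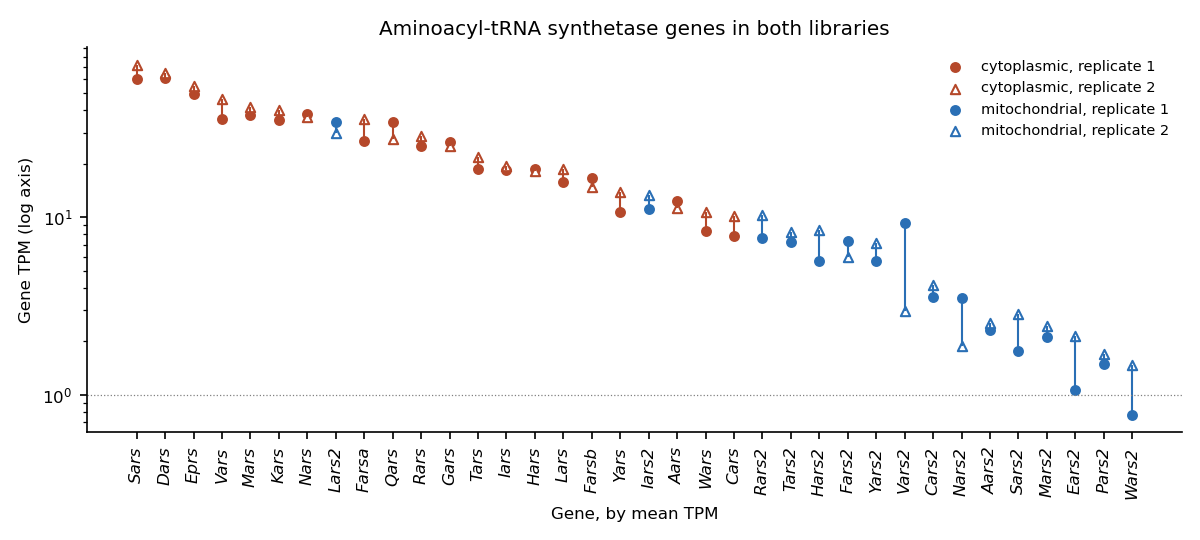
TPM of 36 of the 37 synthetase genes (log axis) in replicate 1 (circles) and replicate 2 (open triangles), ordered by mean TPM, with a line joining the 2 libraries and a dotted line at 1 TPM. The last 10 places are all mitochondrial enzymes, and Lars2 is the only mitochondrial gene among the first 10.

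Ordered by mean TPM, cytoplasmic genes took 9 of the first 10 places and 18 of the first 20. The last 10 places were all mitochondrial. The levels spanned 7.38-fold among cytoplasmic genes and 28.6-fold among mitochondrial genes. Of the 36 neighbouring pairs in this order, 28 had ranges that overlapped between the libraries, so most single steps are not resolved. Steps without overlap separated Dars from Eprs, Eprs from Vars, Nars from Lars2, Gars from Tars, Farsb from Yars, Aars from Wars, Cars2 from Nars2 and Pars2 from Wars2.

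Among cytoplasmic enzymes the serine, aspartate and glutamate-proline enzymes led. Sars (chromosome 3, 108424865 to 108445209, minus strand, GRCm38), which loads serine onto the serine and selenocysteine tRNAs, had 60.3 and 72.6 TPM, or 66.5 ± 8.70 (SD, n = 2). Dars (chromosome 1, 128363707 to 128417368, minus strand), the aspartate enzyme, had 60.9 and 64.9 TPM, a range inside that of Sars. Eprs (chromosome 1, 185363044 to 185428360, plus strand) had 49.3 and 54.9 TPM, below both of these in each library. Eprs also had the most counts of any member, 16931 and 49057.

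The 8 enzymes of the multisynthetase complex (Eprs, Iars, Lars, Mars, Qars, Rars, Kars, Dars) had a median of 34.8 TPM in replicate 1 and 34.5 in replicate 2. The 12 cytoplasmic enzymes outside it had medians of 18.6 and 20.0 TPM. Counted over the full-length models of the GENCODE basic set alone, the means of these medians went from 34.7 to 20.9 TPM for the complex and from 19.3 to 14.8 TPM outside it. Within the complex the levels were not equal. Kars, the lysine enzyme, had 35.3 and 40.5 TPM, and Mars, the methionine enzyme, had 37.6 and 41.6 TPM. Qars, which charges glutamine, had 34.3 and 27.6 TPM, and Rars, which charges arginine, had 25.1 and 28.6 TPM. By TPM over all models the isoleucine and leucine enzymes were the lowest of the 8. Iars had 18.5 and 19.5 TPM and Lars had 15.9 and 18.6 TPM. Over basic models Mars (mean 4.835 TPM) and Qars (13.1) were lower than Lars (17.25) and Iars (18.5). Mean CPM was also lower in Mars (90.3), Qars (107) and Rars (114) than in Lars (157) and Iars (196). All 3 scaffold genes of the complex were expressed. Aimp1 had 33.3 and 34.4 TPM, Aimp2 had 17.6 and 21.9 TPM, and Eef1e1 had 29.2 and 25.9 TPM, so the scaffold levels fell within the range of the enzymes they hold.

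Outside the complex, Vars (valine) had 36.0 and 46.4 TPM and Nars (asparagine) had 38.0 and 36.6 TPM. The subunits of the phenylalanine enzyme were unequal at the RNA level, with 27.1 and 35.9 TPM for Farsa, the alpha subunit, and 16.5 and 14.8 TPM for Farsb, the beta subunit. Gars (glycine) had 26.6 and 25.2 TPM, Tars (threonine) 18.6 and 21.9 TPM, and Hars (histidine) 18.6 and 18.2 TPM. By TPM the lower end held Aars (alanine) with 12.4 and 11.2 TPM, Yars (tyrosine) with 10.7 and 13.9 TPM and Wars (tryptophan) with 8.33 and 10.8 TPM. For Aars the length correction matters, since its full-length model spans 5750 bases. Its 179 and 136 CPM were above the cytoplasmic medians of 133 and 131 CPM. Cars, the cysteine enzyme, was the lowest cytoplasmic gene with 7.82 and 10.2 TPM, and its range overlapped that of Wars. Grouped by catalytic fold, an assignment from general knowledge made after these values had been seen, 9 class I enzymes had a median of 19.0 ± 0.679 TPM and 10 class II enzymes 28.7 ± 2.63 TPM, with Eprs, which holds both folds, left out. Over basic models these medians were 9.33 ± 2.81 and 23.1 ± 3.16 TPM.

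Among mitochondrial enzymes Lars2, the leucine enzyme, stood apart. Lars2 (chromosome 9, 123366927 to 123462666, plus strand) had 34.3 TPM in replicate 1 and 29.8 in replicate 2, or 9576 and 21330 estimated counts. The deposited interval of its TPM, whose level is not stated, ran from 33.0 to 34.4 in replicate 1 and from 29.1 to 29.9 in replicate 2. It supplied 30.4% and 26.4% of the summed TPM of all 17 mitochondrial enzymes. Without Lars2, the highest of the 17, the mitochondrial median could only stay or fall, and it was 4.61 and 3.54 TPM. The second mitochondrial gene, Iars2 (isoleucine), had 11.1 and 13.4 TPM, and the ranges of Iars2 and Lars2 did not overlap.

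The means of the other 15 mitochondrial enzymes ran from 1.12 TPM for Wars2 to 8.96 TPM for Rars2. Rars2 (arginine) had 7.66 and 10.3 TPM, Tars2 (threonine) 7.28 and 8.29 TPM, and Hars2 (histidine) 5.67 and 8.46 TPM. Fars2, which works as a single chain unlike its cytoplasmic counterpart, had 7.35 and 5.98 TPM, and Yars2 (tyrosine) had 5.67 and 7.17 TPM. Vars2 (valine) had 9.25 and 2.96 TPM, the largest difference between libraries of any member as a ratio, and its case is taken up with the transcript models. Cars2 (cysteine) had 3.55 and 4.12 TPM. The alanine, serine and methionine enzymes Aars2, Sars2 and Mars2 had means of 2.42, 2.31 and 2.28 TPM, and Nars2 (asparagine) had 3.52 and 1.87 TPM. Ears2, the glutamate enzyme on which mitochondrial glutaminyl-tRNA also depends, had 1.06 and 2.14 TPM, and Pars2 (proline) had 1.49 and 1.70 TPM. For Mars2 the length correction matters, since its model spans 11294 bases. Its 63.5 and 62.4 CPM compare with 8.88 and 13.0 CPM for Ears2, while their mean TPM were 2.28 and 1.60.

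Paired by amino acid, the cytoplasmic enzyme had the higher TPM in 16 of 17 pairs, and it did so in both libraries. Here Ears2 and Pars2 were both set against Eprs, and Fars2 against Farsa. The median ratio over pairs was 3.89 in replicate 1 and 6.01 in replicate 2. By TPM, ratios were largest for Eprs over Ears2, 46.5 and 25.7, for Eprs over Pars2, 33.1 and 32.3, and for Sars over Sars2, 34.3 and 25.4. Sars over Sars2 was 19.8 and 15.9 by CPM, and 11.9 and 9.68 over basic models. Nars over Nars2 was higher than that over basic models, with 27.7 and 19.6. Mars over Mars2 gave 17.8 and 17.1 by TPM, but 2.35 and 1.93 over basic models and 1.55 and 1.32 by CPM. By the mean of both libraries the smallest ratios above 1 were 1.67 and 1.45 for isoleucine, 1.88 and 1.94 for tyrosine, and 2.20 and 2.47 for cysteine. Leucine was the single reversed pair. Lars over Lars2 was 0.463 in replicate 1 and 0.626 in replicate 2, and the counts were 4403 and 13266 for Lars. In CPM Lars had 156 and 158 and Lars2 had 340 and 254, so the order of this pair was the same without length correction. Across pairs the mitochondrial gene did not track the cytoplasmic one in a fixed proportion, because tryptophan and cysteine had similar cytoplasmic levels while Wars2 had 0.77 and 1.47 TPM and Cars2 had 3.55 and 4.12 TPM.

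**Figure D2:**
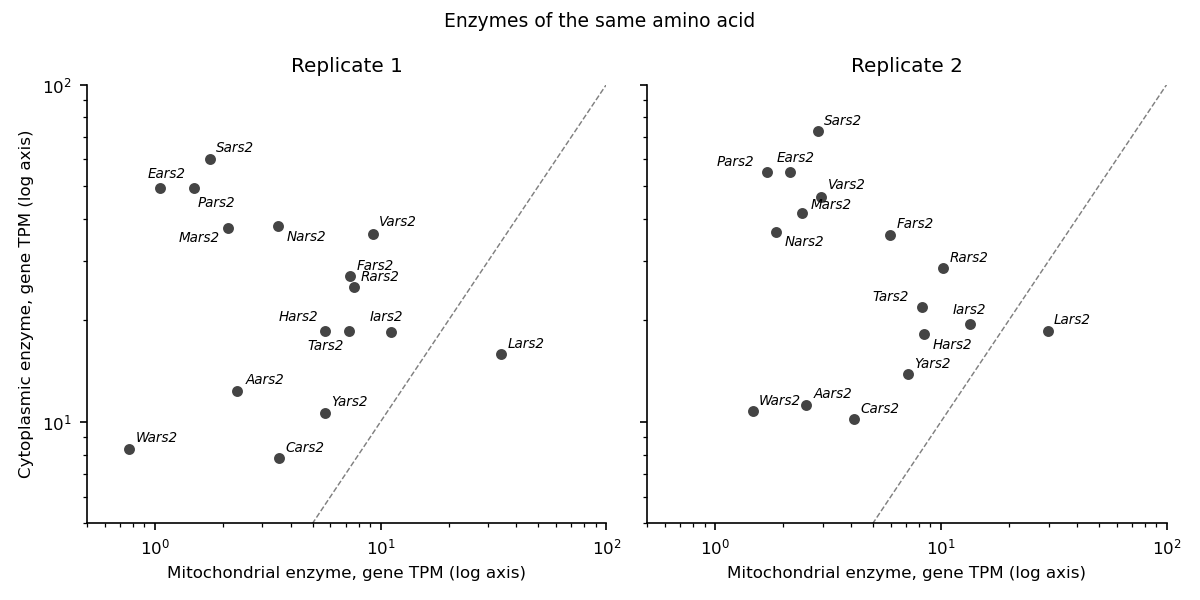
TPM of the cytoplasmic enzyme (vertical log axis) against TPM of the mitochondrial enzyme for the same amino acid (horizontal log axis), 1 point for each of 16 pairs, labelled with the mitochondrial gene, in each library; the dashed line marks equal levels. In both panels Lars2 is the only point to the right of the line.

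Total RNA libraries hold unspliced and partly processed transcripts, and the deposited gene TPM sums over all transcript models of a gene, short ones included. The annotation GENCODE M21 was used to class the models, and its basic set, which keeps the representative full-length models, was used to recompute the levels. This recomputation was chosen after the data had been seen. The leading model held under 50% of gene TPM in at least 1 library in 9 of 37 members (6 cytoplasmic, 3 mitochondrial), where 21.0% of protein-coding genes with at least 100 counts in each library did. Basic models held under 50% of TPM in both libraries in 5 members, beside 10.6% of protein-coding genes. These were Mars, Vars, Sars and Yars among cytoplasmic enzymes and Vars2 among mitochondrial ones. At the other end, 1 model held over 99% of TPM in both libraries in 12 of 37 members, beside 32.2% of protein-coding genes. None of these counts stood far from its background. For 10 members (5 cytoplasmic and 5 mitochondrial, Lars2 among them) the deposited tables held a single model, which fixes its share at 100%. This was so for 2513 of the 9860 protein-coding genes. Median TPM shares in protein-coding models were 98.9% and 98.4% over all members, beside 100% and 99.25% over those 9860 genes. They were 88.9% and 93.6% for cytoplasmic enzymes, below the background in both libraries, and 100% in both for mitochondrial enzymes.

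Mars (chromosome 10, 127296221 to 127311786, minus strand) changed rank most. A retained intron model of 467 bases, Mars-204, made up 60.0% of its TPM in replicate 1 and 49.8% in the other library. The full-length model Mars-201 of 2939 bases held 13.2% and 11.3%, which is 4.98 and 4.69 TPM. By estimated counts the basic model held 37.4% and 36.2%. A short model turns few reads into a high TPM, so the TPM and count shares of such a gene differ. Counted by basic models alone Mars fell from rank 5 to rank 26, the lowest of any cytoplasmic enzyme.

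In Sars a coding model of 637 bases outside the basic set, Sars-204, held 65.3% and 61.9% of TPM, and the basic models held 20.9 and 27.7 TPM but 71.9% and 74.8% of counts. In Vars (chromosome 17, 35000987 to 35016322, plus strand) the full-length model held 7.34 and 11.3 TPM, 20.4% and 24.4% of the total. The retained intron model Vars-204 of 475 bases held 36.0% and 31.7% of the TPM of Vars. In Yars a processed transcript of 921 bases, Yars-204, held 45.7% and 33.6%. Each of these 3 models was the first or second of its gene by TPM in both libraries, as was Mars-204. Retained intron models together held at least 10% of TPM in both libraries in 10 members, among them Cars, Ears2, Eprs, Farsa, Hars2, Mars, Qars, Vars and Vars2. The share over all protein-coding genes was not computed, so this count describes the members alone.

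**Figure D3:**
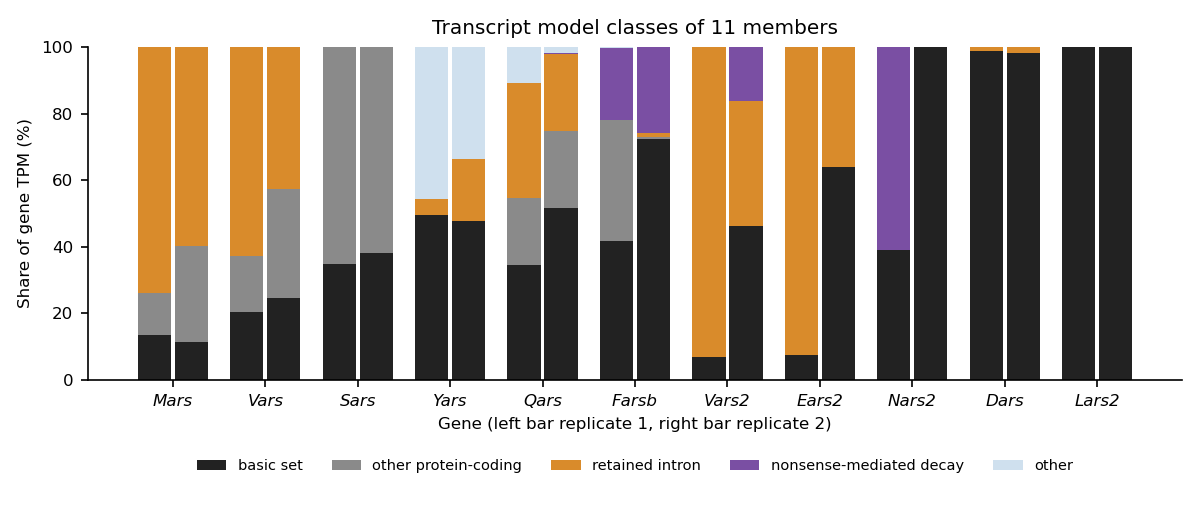
Percent of gene TPM (vertical axis) held by each class of GENCODE M21 transcript model in 11 synthetase genes, with 1 bar per library. Mars and Vars show large retained intron shares in both bars, and Vars2 and Nars2 differ between their bars. Lars2 is filled by its only deposited model, which is of the basic set.

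By basic models the leading genes were Dars with 61.9 TPM, Eprs with 45.3 and Kars with 37.9, and Sars had 24.3 TPM. Lars2 moved up to rank 5, and as its single deposited model is in the basic set, its own TPM could not change. The cytoplasmic enzyme was above its counterpart in 15 of 17 pairs. Besides leucine, the tyrosine pair was reversed, with 5.28 and 6.63 TPM for Yars and 5.68 and 7.14 TPM for Yars2. The difference of medians between the sites was 2.22 on the log2(TPM + 1) scale, against 2.21 with all models. The distance between cytoplasmic and mitochondrial enzymes thus held under both counts, while the rank of single genes such as Mars, Vars and Sars did not.

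**Figure D4:**
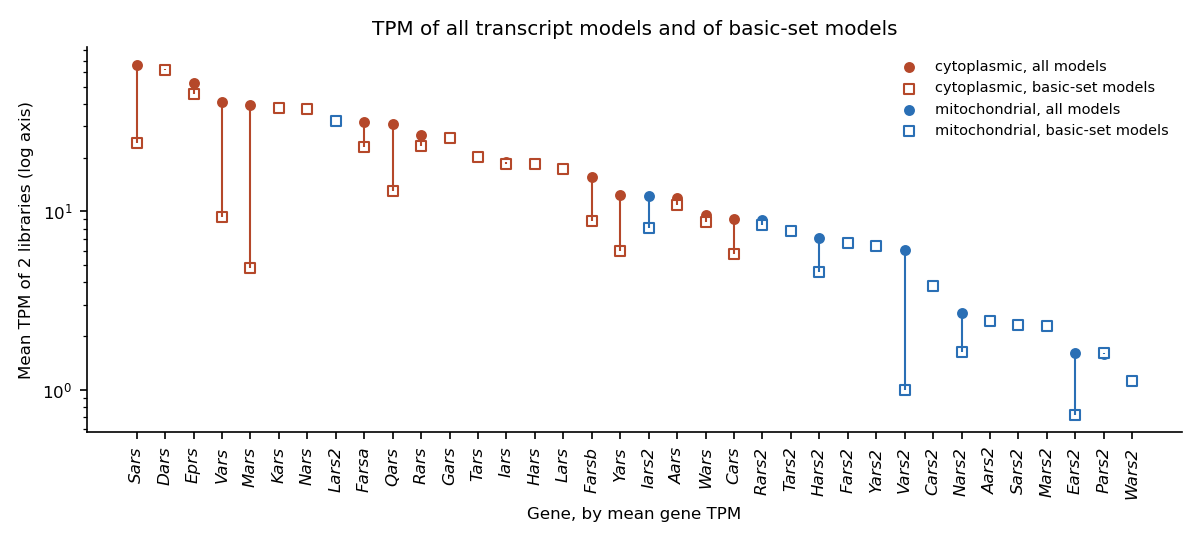
Mean TPM of 2 libraries (log axis) from all transcript models (filled circles) and from basic-set models alone (open squares) in 36 synthetase genes, with a line joining the values of each gene. Mars, Vars and Vars2 have long lines, Dars and Kars hardly move, and Lars2, with a single model, cannot move.

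Between the libraries the members differed little. Log2 CPM ratios of replicate 2 over replicate 1, scaled with TMM, ran from -0.51 for Fars2 to 0.72 for Wars2. None of the 37 genes differed 2-fold or more, where 7.66% of 11185 protein-coding genes with a mean of at least 50 counts did, 4.94% being higher and 2.73% lower in replicate 2. Members are well counted, with mean counts from 474.5 for Pars2 to 32994 for Eprs. Among the 8711 protein-coding genes with at least the mean count of Pars2, 1.14% differed 2-fold or more. Median ratios were -0.03 for cytoplasmic enzymes (SD over genes 0.19) and 0.0034 for mitochondrial enzymes (SD over genes 0.35), beside 0.01 for all genes tested. On the TPM scale the median ratio was 0.17 for cytoplasmic and 0.19 for mitochondrial enzymes and 0.22 for all genes tested, so the members moved with the median of all genes.

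**Figure D5:**
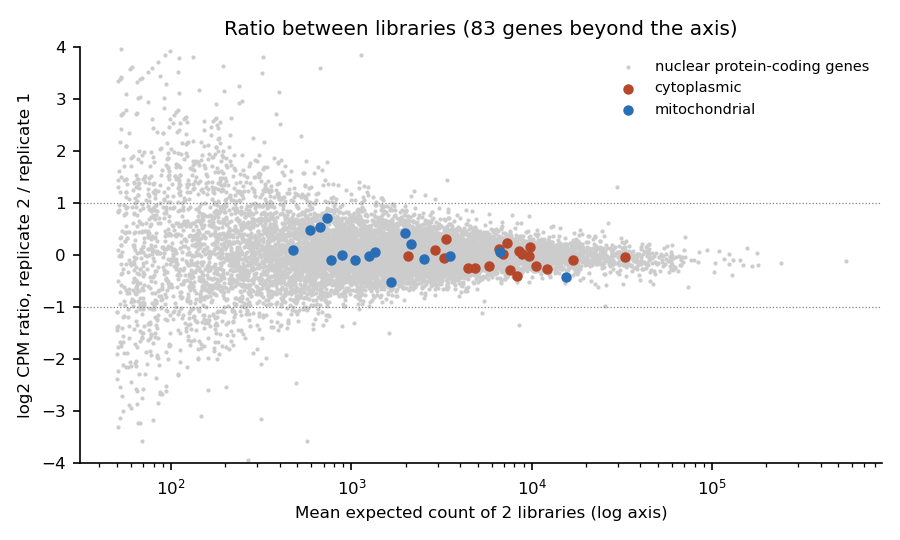
Log2 CPM ratio of replicate 2 over replicate 1 (vertical axis) against the mean estimated count of 2 libraries (log axis) for each tested nuclear protein-coding gene, with 36 cytoplasmic and mitochondrial synthetase genes in colour over all other tested genes in grey, 83 of which lie beyond the axis, and dotted lines at 2-fold differences. The members lie between -0.51 and 0.72, on both sides of the line of no difference.

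TPM ratios were taken with 0.1 added to each value. On that scale Vars2 was the 1 member that differed 2-fold, with a log2 ratio of -1.61, and Ears2, which passes 2-fold without the addition, had 0.95. This stands beside 2.47% of tested genes that were 2-fold lower by TPM and 7.02% that were 2-fold higher. Its CPM was 22.5 and 22.1, almost the same in both libraries. The deposited intervals of its TPM did not overlap, from 7.61 to 11.7 in replicate 1 and from 2.77 to 3.93 in replicate 2. A retained intron model of 319 bases, Vars2-212, made up 75.6% of its TPM in replicate 1 but 7.43% in replicate 2. That share rested on 58.9 and 5.16 estimated counts of 634 and 1860 for the gene. The full-length model Vars2-201 had 0.63 and 1.37 TPM. Nars2 was similar. Its TPM was 3.52 and 1.87 while its CPM was 14.4 and 13.4, and a model of 623 bases marked for nonsense-mediated decay, Nars2-205, made up 61.2% of TPM in replicate 1 but 0% in replicate 2. In these 2 of 37 members the log2 ratios by TPM and by CPM differed by 0.5 or more, beside 9.54% of protein-coding genes.

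Other members shifted between models while their log2 ratios by TPM and by CPM differed by less than 0.5. Ears2 had 1.06 and 2.14 TPM, with log2 ratios of 0.95 by TPM and 0.55 by CPM. In Ears2 the retained intron model Ears2-202 made up 82.2% of TPM in replicate 1 but 15.0% in replicate 2, while Ears2-201 went from 7.48% to 64.0%. The model Farsb-203 held 36.2% and 0.677% of the TPM of Farsb. With 2 libraries of unequal depth and stated size range, a change in transcript use and a difference in how reads were assigned to models cannot be told apart.

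Estimated counts were whole numbers in all members but Iars and Qars, and were not whole in 10.3% of protein-coding genes with counts. Of the 31-base words in their M21 transcripts, 8 members shared none with another gene and the median member shared 1.66%. More than 10% was shared in 4 members, among them Aars (14.4%, with Exosc6), Iars (14.7%, with the pseudogene Gm4849) and Iars2 (23.6%, with Rab3gap2). How far such shared sequence affects the levels was not tested. Lars2 shared 103 of 11160 words, or 0.923%, and none with the mitochondrial ribosomal RNA genes mt-Rnr1 and mt-Rnr2 or with the ribosomal RNA gene models Gm42418 and AY036118. Overlap with another annotated gene was found for 20 members, and for 11 of them with a protein-coding gene. In Aars the protein-coding gene was Exosc6, on the same strand over 1326 bases, and no count was available for Exosc6. In 10 cases the protein-coding gene lay on the opposite strand. Examples were Rab3gap2 over 2034 bases of Iars2, Ddit3 over 68 bases of Mars, and Hars and Hars2 over 198 bases of each other. Whether the counting used strand is not given in the sources used here, and without strand the reads of such neighbours cannot be told apart within the overlap. Shares over all genes were computed for neither the overlaps nor the shared words, so these counts describe the members alone.

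Cytoplasmic synthetase genes are known targets of ATF4, a transcription factor made when uncharged tRNAs activate the kinase of Eif2ak4 and which binds C/EBP-ATF response elements. The 300-base promoter windows of RefSeq (250 bases before and 50 from the transcription start on, GRCm38.p6) were searched on both strands for TGATGNAA, a core of that element. Windows were matched for 27 of the 37 members, 13 cytoplasmic and 14 mitochondrial. The motif was present in 5 of the 13 cytoplasmic windows and in 0 of the 14 mitochondrial ones, where 4.51% of all 27025 windows held it. The motifs were chosen with the expression values known. The windows with a match are shown because they carry this difference between the sites. They are those of Aars (chr8:111033592-111033891, plus strand), Gars (chr6:55037751-55038050, plus strand), Iars (chr13:49681880-49682179, plus strand), Tars (chr15:11399609-11399908, minus strand) and Yars (chr4:129189653-129189952, plus strand). Each reads 5′ to 3′ along the gene's strand, and capitals mark a match on either strand, which reads TTNCATCA where the match is on the opposite one.
Aars: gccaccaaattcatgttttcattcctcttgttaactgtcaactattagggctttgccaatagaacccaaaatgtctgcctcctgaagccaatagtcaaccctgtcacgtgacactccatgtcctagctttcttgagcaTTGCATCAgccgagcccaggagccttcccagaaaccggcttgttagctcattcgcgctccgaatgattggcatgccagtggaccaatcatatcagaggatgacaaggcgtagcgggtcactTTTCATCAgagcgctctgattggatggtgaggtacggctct
Gars: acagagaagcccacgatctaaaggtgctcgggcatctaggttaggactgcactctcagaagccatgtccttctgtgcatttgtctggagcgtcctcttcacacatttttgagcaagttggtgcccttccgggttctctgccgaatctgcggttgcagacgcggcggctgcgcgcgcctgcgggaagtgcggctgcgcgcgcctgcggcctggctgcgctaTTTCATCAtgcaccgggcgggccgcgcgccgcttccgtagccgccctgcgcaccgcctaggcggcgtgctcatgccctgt
Iars: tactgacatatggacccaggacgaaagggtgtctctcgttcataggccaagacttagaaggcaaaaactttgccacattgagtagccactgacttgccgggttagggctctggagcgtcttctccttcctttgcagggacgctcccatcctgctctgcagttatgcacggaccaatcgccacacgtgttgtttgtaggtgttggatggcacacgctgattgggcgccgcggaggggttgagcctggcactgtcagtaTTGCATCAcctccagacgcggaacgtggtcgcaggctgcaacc
Tars: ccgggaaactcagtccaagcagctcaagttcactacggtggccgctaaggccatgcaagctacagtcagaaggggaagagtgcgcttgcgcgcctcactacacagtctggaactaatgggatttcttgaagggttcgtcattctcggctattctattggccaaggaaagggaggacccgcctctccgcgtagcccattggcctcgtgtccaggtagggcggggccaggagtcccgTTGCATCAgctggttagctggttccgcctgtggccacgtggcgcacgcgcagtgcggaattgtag
Yars: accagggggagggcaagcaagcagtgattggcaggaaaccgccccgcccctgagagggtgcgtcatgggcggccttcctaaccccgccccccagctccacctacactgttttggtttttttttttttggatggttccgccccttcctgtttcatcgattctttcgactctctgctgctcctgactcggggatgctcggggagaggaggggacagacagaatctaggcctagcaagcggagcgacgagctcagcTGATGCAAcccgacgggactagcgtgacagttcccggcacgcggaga

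Aars held 2 matches, beginning 112 bases before the start and at base 10 of the transcript. In Gars the match began 30 bases before the start and in Tars 15 bases before it, while in Iars and Yars it began at bases 8 and 4 of the transcript. The 5 cytoplasmic genes with the motif had mean levels from 11.8 to 25.9 TPM with a median of 19.0 TPM. The other 8 cytoplasmic genes with a matched window had levels from 15.7 to 66.5 TPM with a median of 38.7 TPM. In these cells the genes with a match were thus not the higher ones by gene TPM, and the ranges overlapped. Over basic models mean levels ran from 5.955 TPM (Yars) to 25.9 (Gars) with the motif, the middle gene being Iars (18.5). Without it they ran from 4.835 (Mars) to 61.9 TPM (Dars), the middle genes being Farsa (23.0) and Sars (24.3). By mean CPM the middle gene with the motif was Gars (142), and those without it were Farsa (125) and Sars (170). The distance between the groups was thus smaller on these scales than by gene TPM. The E-box CACGTG, searched in the same way, was found in 4 of 13 cytoplasmic windows (Aars, Farsb, Iars, Tars) and 1 of 14 mitochondrial windows (Ears2), beside 8.09% of all windows. GCATGCGC, contained in sites of NRF1, a regulator of nuclear genes for mitochondrial proteins, was in 0 cytoplasmic windows and in those of Rars2, Vars2 and Wars2, beside 3.05%. The ETS motif CCGGAAGT was in the windows of Farsa, Mars and Rars2, beside 4.31%, and the YY1 motif AAGATGGC in those of Farsa, Aars2, Wars2 and Yars2, beside 3.19%. A match describes the letters of these windows and no binding was measured.

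Of 17 genes of the amino acid response, 11 had at least 1 TPM in both libraries. Atf4 itself had 74.1 and 80.9 TPM, and Phgdh, the first enzyme of serine synthesis, had 79.0 and 79.5 TPM. Asns, the asparagine synthetase, had 13.0 and 15.6 TPM, and Psat1, the next enzyme of serine synthesis, had 19.3 and 20.5 TPM. Ddit3, which lies next to Mars on the other strand, had 8.59 and 13.8 TPM. Chac1 and Trib3, which are strongly induced in the stress arm of this response, had 0 counts in both libraries. Of the genes that sense uncharged tRNA, Eif2ak4 had 3.09 and 4.82 TPM and Gcn1l1, its activator, 6.91 and 9.73 TPM.

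The genes that act before and after the synthetases were also expressed. All 10 genes of tRNA end processing reached 1 TPM in both libraries, with a median of 8.38 ± 1.90 TPM (SD, n = 2). Trnt1, which adds the CCA end that synthetases charge, had 20.2 and 23.2 TPM, and the tRNA ligase gene Rtcb had 39.8 and 39.0 TPM. Downstream, the 4 genes of cytoplasmic elongation factor 1, which takes charged tRNA to the ribosome, had a median of 432 ± 17.0 TPM, led by Eef1a1 with 3405 and 3107 TPM. In the mitochondrion the counterpart Tufm had 17.7 and 18.9 TPM, and the 8 elongation, initiation and release genes had a median of 9.87 ± 0.24 TPM. Those 8 genes thus had a median above that of the mitochondrial synthetases in both libraries. The 4 genes that finish mitochondrial glutaminyl-tRNA and formyl-methionyl-tRNA had medians of 3.38 and 3.365 TPM. These lay below the medians of the mitochondrial synthetases and above the 1.06 and 2.14 TPM of Ears2. Levels were 2.76 and 3.39 TPM for Gatb, 4.17 and 3.34 for Gatc, 1.82 and 2.66 for Qrsl1 and 4.00 and 4.64 for Mtfmt. The synthetase-like and editing genes Tarsl2, Aarsd1, Prorsd1, Dtd1 and Dtd2, which lie outside the naming rule, had a median of 9.89 ± 1.33 TPM. Among the listed genes other than the cell type markers, none with a mean of at least 50 counts differed 2-fold or more between the libraries.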

How the data were processed

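Members and gene lists were chosen with earlier results of these data known. For each library the authors deposited tables of genes and of transcripts. The genome was mm10 and the annotation GENCODE M4, per the readme files. No aligner, quantifier or strand setting is given in the sources used here. Per the file headers the tables hold expected counts, which are estimates and need not be whole. TPM, posterior mean TPM and FPKM were deposited in the same tables, and TPM is relative to all entries, so nuclear protein-coding genes held 20.1% and 21.5% of it and 81.8% and 80.2% of counts. Bounds of the deposited TPM intervals were used as given. Of 69691 entries, 26248 with numeric identifiers (0 and 83 counts) and 97 spike-ins stayed out of library sizes.

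Ensembl IDs were matched to GENCODE M21 (GRCm38, the assembly of mm10) for symbols, positions and transcript classes, which succeeded for 42462 of 43346. Levels are medians of TPM per library, given as mean ± SD over 2 libraries. Expected counts were rounded to whole numbers and scaled with TMM in edgeR 4.0.16 (R 4.3.3) for log2 CPM ratios with a prior count of 0.5, at a mean of at least 50 counts; DESeq2 1.42.0 size factors were an alternative. The ratio script was tested on simulated data. Every member and every gene of the fixed lists could be named. One member counts in all totals and medians but is not reported here by name, in text or figures. Multisynthetase complex membership and sites are from general knowledge. No test was made, since there is 1 group. Shares of short transcript models rest on far fewer counts than gene values. Alternatives were other scalings, units, thresholds, pseudocounts, member sets and libraries left out.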

Additional observations from a re-analysis of the deposited data

How the results depend on the processing

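Of the 69 recomputed values, 52 were unchanged by the criterion for their kind. Counts stayed within 1.5 times, and log2 ratios kept their sign and moved by at most 0.1. Other values moved by no more than the SD between libraries. Some of the 52 could not change, so their number does not measure robustness. Leaving out either library moves a mean over both by no more than their SD, whatever the values. FPKM and rescaled TPM scale all genes of a library alike, which keeps the order within each pair. Gars and Kars are in no pair, and the alternative count filters removed no member. Changes of unit moved levels by construction: the cytoplasmic and mitochondrial medians were 126 and 23.7 when TPM was made to sum over nuclear protein-coding genes alone, 65.6 and 12.4 in FPKM, and 132 and 23.7 in CPM. Over basic transcript models, an alternative chosen after seeing the data, they were 18.6 and 3.21 TPM. The cytoplasmic median was 23.3 TPM without Gars and Kars and 19.3 without the multisynthetase complex. Leaving out that complex gave a difference of 1.80 on the log2(TPM + 1) scale. It also removed Lars, and with it the single reversed pair. The cytoplasmic enzyme was higher in the remaining 10 of 10 pairs, which the main result had fixed in advance. Leaving out each library in turn gave cytoplasmic medians from 25.9 to 26.4 TPM, mitochondrial medians from 4.12 to 5.67 TPM and differences from 2.01 to 2.42. Leaving out Lars2, also chosen after seeing the data, could not narrow the difference, because Lars2 was the highest mitochondrial gene, and gave 2.43.

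By the ratio of TPM with 0.1 added, 1 member differed 2-fold (Ears2 passes 2-fold without the addition), and the median log2 ratio was 0.17 for cytoplasmic enzymes, against -0.03 by CPM, and 0.19 for mitochondrial enzymes, beside 0.22 for all genes tested. With library totals alone the mitochondrial median ratio was -0.00018, against 0.0034, so its sign carries no information. The median share of protein-coding models was 92.2% with posterior mean TPM, against 98.7%, and the cause was not tested. No paired analysis was possible because the 2 libraries form a single group. Shares of short transcript models can rest on few counts, such as 5.16 for Vars2-212 in replicate 2. Gene TPM includes these models, and for Vars2 it was 9.25 and 2.96 where CPM was 22.5 and 22.1. The effect of depth on gene levels was not tested.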
